A study of Equus caballus with 15 samples.

Results

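The genes described here are integrins, other adhesion receptors, and the actin linkers and scaffold proteins of focal contacts and podosomes, in equine macrophages grown from blood. They were chosen by name, as the rows whose symbol is on a list of 39 names. Of these names, 36 were found as symbols among the 16932 genes deposited. TKS4 is another name of SH3PXD2B and is counted with it, and ITGAV and SELPLG are not analysed here. A total of 35 of the 36 genes averaged at least 1 CPM (the gene's reads scaled to the same total in every library) and were tested. The exception was SH3PXD2A, which lay between 0 and 0.880 CPM.

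Peripheral blood mononuclear cells of 2 horses were differentiated for 5 days with 30 ng/ml human M-CSF, and sequencing of polyadenylated RNA covered 5 conditions in 3 libraries apiece. IL-1ß was withheld from the untreated macrophages. The 4 other conditions all received IL-1ß at 10 ng/ml, given alone, or together with an orthobiologic therapy (OT) as 25% of the medium for 24 h. The OTs were MSC-CM (medium conditioned by mesenchymal stromal cells of bone marrow), PRP lysate (lysed platelet rich plasma) and ACS (serum conditioned by incubation before use), and every OT came from 3 donor horses. The same 3 horses gave blood and bone marrow for all OTs, so that the OT groups share donors, and their comparisons with one another come from a model without donors. The OT libraries therefore replicate the product, whereas the study describes the untreated and the IL-1ß libraries as technical replicates, so that p-values measure the spread between these libraries only. The sample descriptions place collection directly after the 24 h of treatment, whereas the study's overview places it after another 24 h of culture without the treatment.

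Integrins are receptors made of an alpha and a beta chain that hold a cell to matrix proteins or to receptors on other cells. Beta 2 integrins belong to leukocytes, and beta 1, beta 3, beta 5 and beta 8 pair with alpha chains that bind collagen, laminin, fibronectin or vitronectin. Talin and kindlin-3 (FERMT3) bind the beta tails and switch integrins on, and vinculin, zyxin, paxillin, alpha-actinin and filamin join them to actin. Macrophages concentrate these proteins in podosomes, which are short actin columns ringed by integrins that attach the cell and digest matrix. The TKS scaffolds SH3PXD2A and SH3PXD2B are known for this digestion.

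The libraries held 28410743 to 47894073 counted reads, so that 1 CPM was 28.4 reads in the shallowest. Macrophage markers summed to between 2043 and 6525 CPM, with CD68 at 1340 to 2157 CPM, but the monocyte marker CD14 was at only 1.38 to 4.32 CPM. T cell markers summed to between 694 and 1849 CPM, with all 8 listed above 1 CPM on average, so RNA of T cells was present in every library. The other lists were lower. NK cell markers summed to at most 284 CPM, B cell markers to 48.2 CPM, endothelial markers to 42.4 CPM, fibroblast markers to 20.4 CPM and platelet markers to 4.34 CPM, and VWF and the platelet gene GP9 were each at or below 0.257 CPM in every library. Dendritic cell markers reached 354 CPM, almost all of it CCR7, and neutrophil markers 759 CPM, almost all of it CSF3R. The platelet genes GP6 and PF4, the fibroblast gene COL3A1, GZMB and CD79B were not found as symbols. Nor were the neutrophil genes CXCR1, CXCR2 and MMP8, so these sums leave them out. In these bulk samples, fewer cells of a type and less RNA per cell cannot be told apart. IL-1ß library 3 and PRP lysate library 1 stood apart on the first principal component, at -103 and -51.7 against -20.7 to 26.6 for the other 13 libraries. Both also held the highest T cell sums, 1754 and 1849 CPM.

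**Figure D1:**
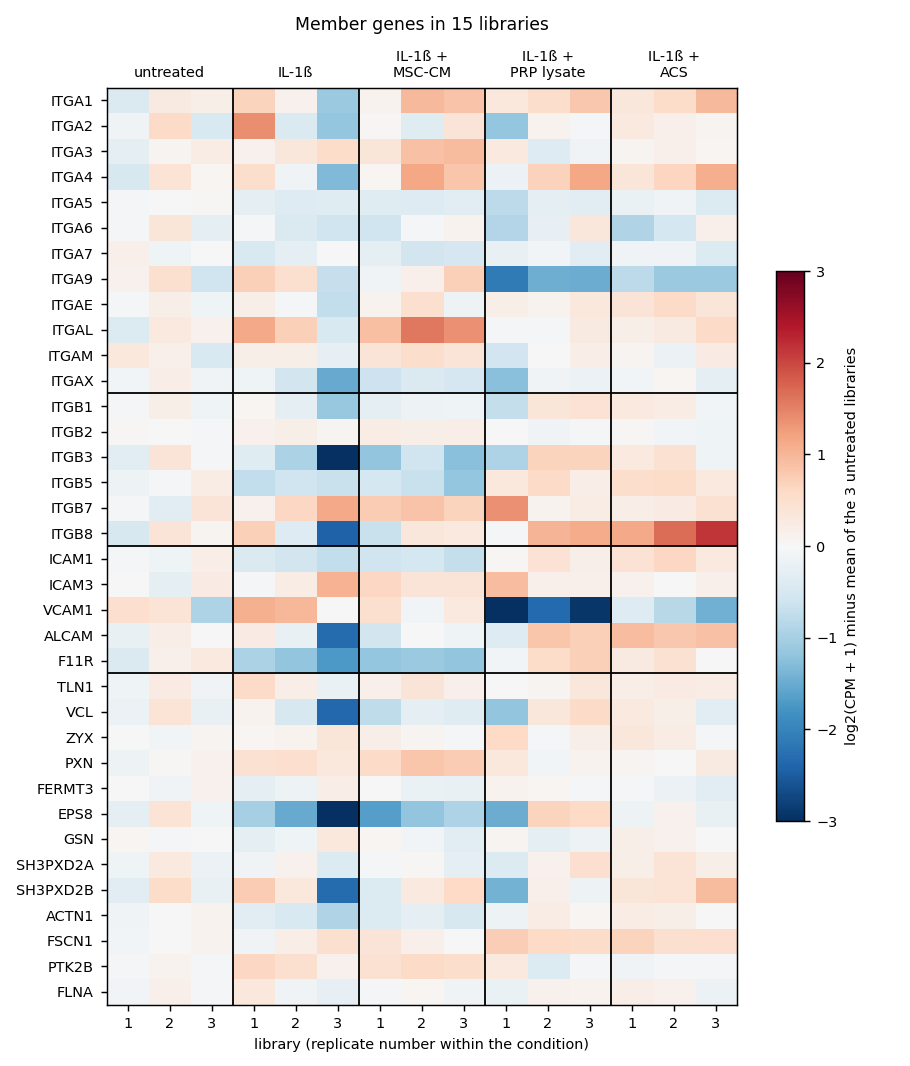
Level of the 36 listed genes (rows, grouped as integrin alpha chains, integrin beta chains, other adhesion receptors, and linkers and podosome proteins) in the 15 libraries (columns), as the difference in log2(CPM + 1) from the mean of the 3 untreated libraries, with colours clipped at -3 and 3. VCAM1 and ITGA9 are low in the 3 PRP lysate libraries, F11R is low in the IL-1ß and the MSC-CM libraries, and IL-1ß library 3 is low for many genes at once.

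The first comparison asked which of these genes differed when macrophages received IL-1ß. Of the 35 genes tested, 0 passed an adjusted p of 0.05 (limma, Benjamini-Hochberg over 11628 genes) together with a 2-fold change, where 0.292% of all genes did. At an unadjusted p under 0.05 there were 10 of 35, beside 13.0% of all genes. On reads recovered from the CPM, edgeR called 1 gene, F11R (0.197% of all genes), and DESeq2 called F11R and EPS8 (1.24%), of which EPS8 was listed for this difference. The 3 IL-1ß libraries lay wholly below the untreated libraries for 8 genes (8.22% of all genes) and wholly above for 3 genes (7.98%). The 8 lower genes were F11R, ICAM1, ITGB5, ACTN1, EPS8, ITGA5, ITGB3 and ITGAX, so they came from every group of the list. EPS8, listed for this difference, is 1 of these 8 and 1 of the 10 above, and its part in those counts is a description. The median log2 fold change of the 35 genes was -0.11, beside -0.07 over all genes.

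F11R, also called JAM-A, is an immunoglobulin-type receptor of cell junctions and of leukocytes, and binds the leukocyte integrin LFA-1. It lies on chromosome 5 (32246417 to 32263760, EquCab3.0, ENSECAG00000018579). Untreated libraries held 15.4, 23.5 and 25.9 CPM of F11R, and IL-1ß libraries 10.4, 8.81 and 5.67 CPM. The groups did not overlap. The log2 fold change was -1.28 ± 0.259 (SE), with an adjusted p of 0.056 by limma that just missed the threshold and ranged from 3.78e-05 to 0.557 over the other settings. ICAM1, the endothelial and leukocyte ligand of LFA-1 and Mac-1, followed at -0.57 (adjusted p = 0.103, limma). The integrin chain ITGB5, which pairs with the alpha V chain to bind vitronectin, was at -0.67 (adjusted p = 0.114, limma).

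EPS8 caps and bundles actin filaments downstream of growth factor receptors, and spans 170 kb on chromosome 6 (44165849 to 44336040, ENSECAG00000014922). It was put on the list for its lower level under IL-1ß, so its values in that comparison, and wherever the same IL-1ß or untreated libraries are set against an OT, are a description. Untreated libraries held 176, 285 and 197 CPM of EPS8. The IL-1ß libraries held 107, 75.2 and 18.8 CPM, all below the untreated ones, and the lowest was the library that stands apart. With a mean of 219 ± 57.9 CPM against 67.0 ± 44.6 CPM (SD, n = 3), the log2 fold change was -1.98, the lowest of the 35 genes, with a wide spread. Without IL-1ß library 3 the log2 fold change of EPS8 was -1.25.

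**Figure D2:**
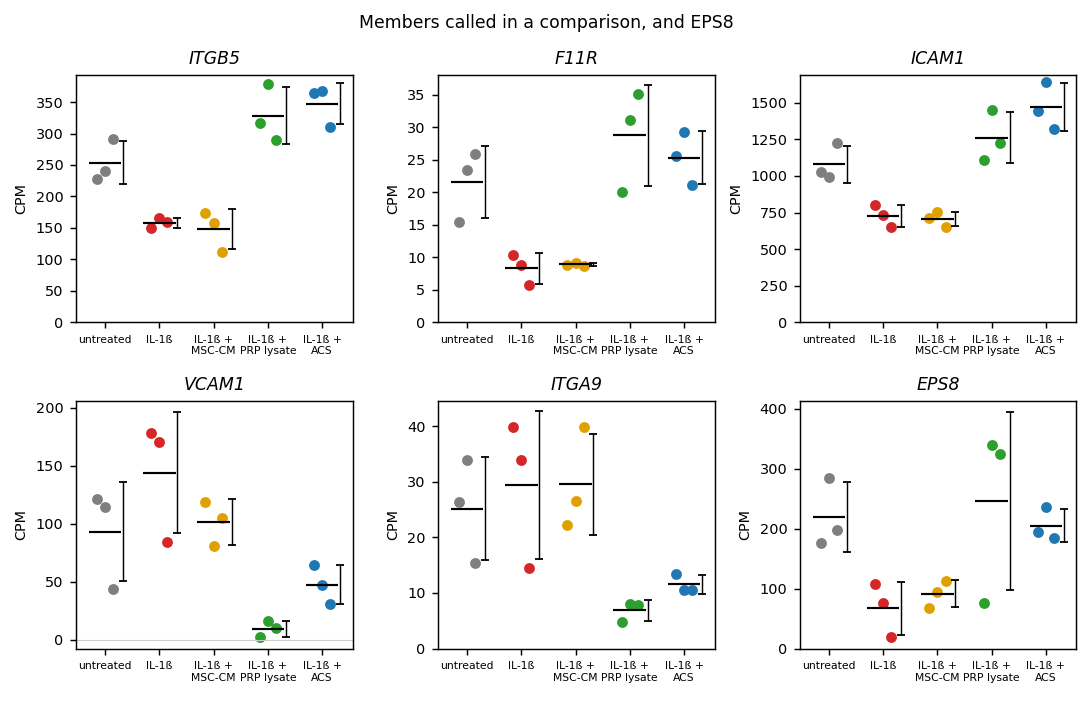
CPM in each of the 15 libraries (points) of the 5 genes called in any comparison and of EPS8, with the mean of each condition (bar) and its SD (vertical line, n = 3). ITGB5, F11R and ICAM1 are lower with IL-1ß and with MSC-CM than with PRP lysate and ACS, with no overlap, whereas VCAM1 and ITGA9 are lowest with PRP lysate.

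MSC-CM was compared with IL-1ß alone, to ask whether the conditioned medium moved the activated cells. Here 0 of 35 genes were called by limma, as were 0% of all genes, and edgeR (0% of all genes) and DESeq2 (0.0118%) also called 0. At an unadjusted p under 0.05 limma gave 1 gene, ITGAL (5.60% of all genes). ITGAL, the alpha chain of LFA-1 on lymphocytes and myeloid cells, was at 173, 277 and 240 CPM with MSC-CM and at 204, 153 and 67.3 CPM with IL-1ß alone, and these groups overlapped. Its log2 fold change was 0.81 (95% interval 0.09 to 1.53, adjusted p = 0.705, limma), or 0.65 relative to the median of all genes, which itself was at 0.16 on the CPM scale and at 0.00 after scaling by RLE size factors (a median-ratio scaling). The next in order were the VCAM1-binding chain ITGA4 at 0.99 and the focal contact adaptor PXN (paxillin) at 0.28, both with an adjusted p of 0.705 by limma. Without IL-1ß library 3, which stands apart, ITGAL was at 0.35 and ITGA4 at 0.48, and without IL-1ß library 1 they were at 1.14 and 1.40. EPS8 was at 67.7, 94.3 and 113 CPM with MSC-CM, with a log2 fold change of 0.73, and of -0.00 without IL-1ß library 3 (1.22 without library 1).

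PRP lysate and ACS were each compared with the same 3 IL-1ß libraries, so these comparisons are not independent of each other. With PRP lysate 4 of 35 genes were called by limma, where 3.09% of all genes were. The 2 that rose were ITGB5 and F11R (1.07% of all genes rose), and the 2 that fell were VCAM1 and ITGA9 (2.02% fell). With ACS 3 of 35 genes were called (2.21% of all genes), and all 3, ITGB5, F11R and ICAM1, rose (1.23%). On the adjusted p alone, without the fold, PRP lysate had 6 genes (4.94% of all genes), with ICAM1 and ACTN1 added, and ACS had 4 (3.45%), with ACTN1 added. The median log2 fold change of the 35 genes was 0.08 with PRP lysate and 0.13 with ACS, beside 0.11 and 0.13 over all genes. After RLE scaling, PRP lysate had 3 calls (3.39% of all genes), with F11R higher and VCAM1 and ITGA9 lower. ACS then had 4 (2.24%), with ITGB5, F11R and ITGB8 higher and ITGA9 lower.

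**Figure D3:**
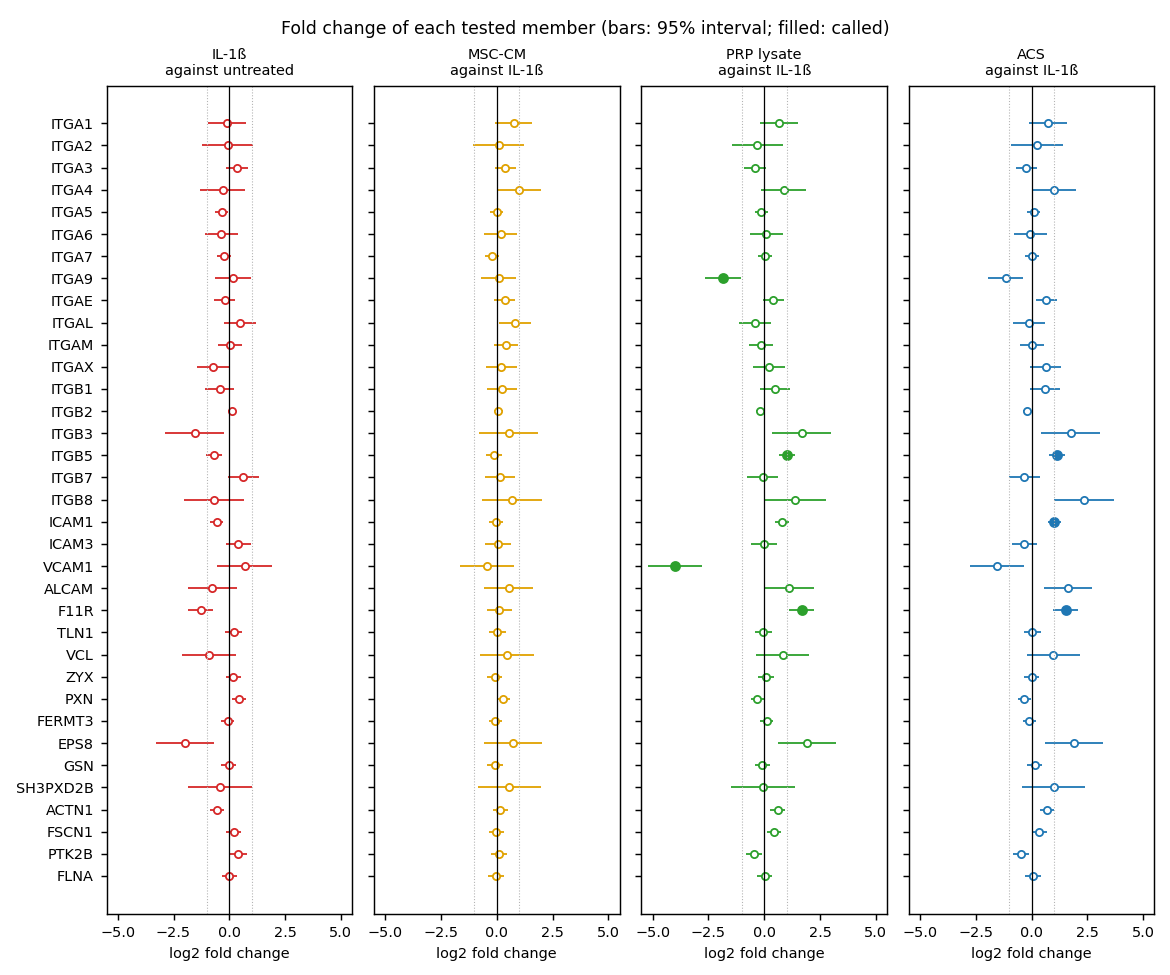
Log2 fold change of each of the 35 tested genes (points, filled where called) with its 95% interval (bars) in the comparison of IL-1ß with untreated and of each OT with IL-1ß, from limma on log2(CPM + 1), with dotted lines at 2-fold. No point is filled for IL-1ß or MSC-CM, 4 are filled for PRP lysate and 3 for ACS, and the intervals of ITGB3, ITGB8, EPS8 and SH3PXD2B are wide.

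Among the integrin beta chains only ITGB5 was called, out of 6 tested. ITGB5 lies on chromosome 19 (37353373 to 37463154, ENSECAG00000007589). Its level was 150, 166 and 159 CPM with IL-1ß alone. With PRP lysate it was 316, 378 and 290 CPM, and with ACS 365, 368 and 310 CPM, so both groups lay wholly above IL-1ß. The fold of the means was 2.07 with PRP lysate and 2.20 with ACS. The log2 fold changes were 1.04 ± 0.168 (adjusted p = 0.00271) and 1.13 ± 0.168 (adjusted p = 0.00362), both by limma. With PRP lysate the value sat at the 2-fold limit, and without PRP lysate library 2 it was 0.93 (adjusted p = 0.0148, limma) and no longer a call. Under RLE, edgeR and DESeq2 it was 0.95, 0.97 and 0.95, also short of 2-fold.

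The other beta chains were not called. ITGB3, the beta chain of the vitronectin receptor of osteoclasts and platelets, was at 171, 115 and 21.3 CPM with IL-1ß, at 116, 351 and 351 CPM with PRP lysate and at 272, 303 and 203 CPM with ACS. The ACS group lay above IL-1ß and the PRP lysate group overlapped it through its library 1, which stands apart. The log2 fold changes of ITGB3 were 1.68 and 1.75 (adjusted p = 0.159 and 0.149, limma). They were 0.79 and 0.86 without IL-1ß library 3, and 2.26 and 2.33 without IL-1ß library 1, both then calls (adjusted p = 0.0485 and 0.0374, limma). ITGB8, whose integrin is known for releasing active TGF-ß, was highest with ACS, at 65.2, 95.3 and 132 CPM, against 48.6, 22.0 and 4.63 CPM with IL-1ß (log2 fold change 2.35, adjusted p = 0.0612, limma). The ACS group did not overlap with IL-1ß, whose own libraries were far apart, and the value was 1.49 without IL-1ß library 3 and 3.06, a call (adjusted p = 0.0114, limma), without library 1. ITGB2, the beta chain shared by the leukocyte integrins, was the steadiest, between 488 and 626 CPM in all 15 libraries, and ITGB1 lay between 461 and 1372 CPM. ITGB7, a chain of lymphocyte integrins, was at 186 CPM in IL-1ß library 3 and at 218 CPM in PRP lysate library 1, its 2 highest values. These are the libraries with the highest T cell marker sums, and the part of T cells in the ITGB7 level was not tested.

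Of 12 integrin alpha chains tested, ITGA9 alone was called. Its product pairs with beta 1 and binds tenascin, osteopontin and VCAM1, and the gene spans 327 kb on chromosome 16 (48986479 to 49313606, ENSECAG00000007848). Levels of ITGA9 were 39.8, 34.0 and 14.5 CPM with IL-1ß and 4.73, 8.03 and 7.88 CPM with PRP lysate, without overlap. The fall was 1.86 on the log2 scale, or 4.28-fold between the means (adjusted p = 0.0103, limma). Without IL-1ß library 2 it was -1.71, at an adjusted p of 0.0515. ACS gave 13.5, 10.6 and 10.5 CPM, also below every IL-1ß library, with a log2 fold change of -1.17 and an adjusted p of 0.111 (limma). ITGA9 with ACS did pass both thresholds without IL-1ß library 3, after RLE scaling, and with edgeR and DESeq2.

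The remaining alpha chains gave no call against IL-1ß. ITGAX (CD11c), an alpha chain typical of macrophages and dendritic cells, ranged from 901 to 2930 CPM and was lowest in IL-1ß library 3. ITGAM, the alpha chain of Mac-1, was at 1.10 to 3.47 CPM in all libraries. ITGA5, the fibronectin receptor chain, lay between 226 and 401 CPM. ITGA1 (31.8 to 139 CPM), ITGA4 (64.0 to 366 CPM), ITGAL (67.3 to 277 CPM) and ITGAE (31.9 to 81.6 CPM) were each spread widely within the IL-1ß group. ITGA2 (0 to 4.86 CPM) and ITGA6 (1.69 to 5.47 CPM) were low throughout. ITGA7, at 1110 to 1797 CPM, shares its position with BLOC1S1 (80.1 CPM on average) and RDH5, and ITGA3 shares its own with PPP1R9B (424 CPM). Whether counting used the strand is not stated, so the values of both are uncertain, as are those of ITGAE, ITGB7 and FSCN1, which overlap HASPIN, TNS2 and RNF216.

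VCAM1 showed the widest difference. It is the immunoglobulin-type ligand of the ITGA4 and ITGA9 integrins, known from cytokine-activated endothelium and also from some macrophages, and lies on chromosome 5 (62204992 to 62222709, ENSECAG00000016735). IL-1ß libraries held 178, 170 and 84.0 CPM of VCAM1, and PRP lysate libraries 2.20, 16.2 and 10.4 CPM. Even the highest PRP lysate library lay far below the lowest IL-1ß library. The means were 144 ± 52.0 CPM with IL-1ß and 9.61 ± 7.05 CPM with PRP lysate (SD, n = 3), and the log2 fold change was -4.00 ± 0.559 (95% interval -5.21 to -2.80, adjusted p = 0.000985, limma). It was called whichever of the 6 libraries was left out, at -4.51 to -3.29. ACS libraries held 64.4, 47.4 and 30.7 CPM, below all IL-1ß libraries as well, but at -1.57 the adjusted p was 0.153 (limma). Of the 7 endothelial markers, VWF, CLDN5 and ESAM were at or below 0.793 CPM in every library, KDR, TIE1 and CDH5 reached 2.83, 3.70 and 12.7 CPM, and TEK lay between 6.57 and 29.9 CPM. Of the 9 macrophage markers, 3 fell with PRP lysate (2.02% of all genes), namely CD163, MERTK and AIF1, and 2 with ACS (0.980%), CD163 and AIF1, where the AIF1 call was lost without ACS library 2 or 3 or IL-1ß library 2 (adjusted p = 0.0583, 0.0705 and 0.0519, limma). The summed level of the 9 was 2043 to 4247 CPM with PRP lysate and 3470 to 6525 CPM with IL-1ß, and its part in the values of VCAM1 and ITGA9 was not tested.

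F11R moved the other way. PRP lysate libraries held 20.0, 31.2 and 35.1 CPM of F11R and ACS libraries 25.6, 29.3 and 21.2 CPM, against 10.4 CPM at most with IL-1ß alone. The rise was 1.68 ± 0.259 with PRP lysate (3.47-fold between the means, adjusted p = 0.00197) and 1.53 ± 0.259 with ACS (3.05-fold, adjusted p = 0.00713), both on the log2 scale by limma. Both were called whichever library was left out. ICAM1, on chromosome 7 (51481225 to 51489203, ENSECAG00000013883), was at 799, 735 and 649 CPM with IL-1ß. It was at 1444, 1644 and 1323 CPM with ACS, a log2 fold change of 1.01 ± 0.137 (adjusted p = 0.00222, limma), and at 1111, 1453 and 1223 CPM with PRP lysate, a log2 fold change of 0.79 (adjusted p = 0.00418, limma) that passed the p threshold but not the fold. The ACS value of ICAM1 also sat at the fold limit. It was 0.93 without ACS library 2 and 0.93 without IL-1ß library 3, and 0.89 after RLE scaling, none of them calls. ALCAM, a receptor for CD6, was at 316, 291 and 303 CPM with ACS against 195, 142 and 32.7 CPM with IL-1ß (log2 fold change 1.63, adjusted p = 0.102, limma). It was 0.86 without IL-1ß library 3 and 2.13, a call (adjusted p = 0.0255, limma), without library 1. ICAM3, a lymphocyte ligand of LFA-1, was highest in the libraries that stand apart, at 492 and 454 CPM, and between 198 and 365 CPM elsewhere.

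Of the 12 linkers and podosome proteins tested, 0 were called by limma with PRP lysate or with ACS. At an unadjusted p under 0.05 there were 5 with PRP lysate (17.5% of all genes) and 5 with ACS (20.5%), EPS8 among both through the IL-1ß values that put it on the list. ACTN1, alpha-actinin, which crosslinks actin at integrin contacts, passed the adjusted p but not the fold. It was at 788, 724 and 534 CPM with IL-1ß, at 885, 1158 and 1033 CPM with PRP lysate (log2 fold change 0.60, adjusted p = 0.037, limma) and at 1162, 1114 and 979 CPM with ACS (0.68, adjusted p = 0.0259, limma). Neither treated group overlapped with IL-1ß. EPS8 was at 75.6, 339 and 324 CPM with PRP lysate and at 194, 236 and 184 CPM with ACS. The ACS libraries all lay above IL-1ß, whereas PRP lysate library 1 lay among the IL-1ß values. The log2 fold changes of EPS8, given without a test, were 1.90 and 1.91. They were 1.17 and 1.17 without IL-1ß library 3 and 2.39 and 2.40 without IL-1ß library 1, and the first lay between 1.53 and 2.61 when 1 PRP lysate library was left out.

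The core linkers differed little. TLN1 (talin) lay between 637 and 1083 CPM, FLNA (filamin A) between 710 and 1051 CPM, FERMT3 between 771 and 1115 CPM, ZYX between 162 and 261 CPM and GSN (gelsolin, which severs actin) between 153 and 237 CPM over all 15 libraries. None of these 5 had a log2 fold change beyond 0.19 in either direction in any of the 4 comparisons above. VCL (vinculin) ranged from 10.1 CPM in IL-1ß library 3 to 84.2 CPM, and SH3PXD2B from 5.12 CPM in the same library to 58.1 CPM. FSCN1 (fascin, an actin bundler) was at 377, 343 and 332 CPM with PRP lysate and 358, 315 and 320 CPM with ACS, and at 210 to 316 CPM with IL-1ß alone. PTK2B (PYK2, the adhesion kinase of macrophages) was at 143, 129 and 102 CPM with IL-1ß and at 86.6, 88.3 and 89.3 CPM with ACS, without overlap (log2 fold change -0.48, adjusted p = 0.139, limma).

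The count with PRP lysate depended on which libraries were fitted, and the part of the spread shared over all conditions was not tested. Fitted with the IL-1ß and PRP lysate libraries alone, 0 of 35 genes were called (0.482% of all genes, with VCAM1 at an adjusted p of 0.0737, limma), and ITGB5 alone was called with ACS (0.413%). Leaving out both libraries that stand apart gave 6 calls with PRP lysate (4.41% of all genes), the 4 above plus EPS8 and ITGB3. It gave 6 with ACS (2.63%), namely ITGB5, F11R, EPS8, ITGB8, ITGA9 and VCAM1. EPS8 adds nothing to these counts as a test, since its IL-1ß values put it on the list. Without IL-1ß library 1, 6 genes were called with PRP lysate (3.65% of all genes) and 7 with ACS (6.06%), EPS8 among both.

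PRP lysate and ACS were also compared with MSC-CM, which asks how the products differed. PRP lysate gave 4 calls of 35 (2.61% of all genes) and ACS 3 (1.23%), and in this model the genes were those called against IL-1ß in each case. ITGAL, at 89.5, 90.9 and 111 CPM with PRP lysate and 173, 277 and 240 CPM with MSC-CM, was not called by it. ITGAL was called with PRP lysate under RLE scaling, edgeR, DESeq2, only these 2 groups, and with both libraries that stand apart left out. MSC-CM libraries held 174, 158 and 112 CPM of ITGB5, 8.88, 9.15 and 8.66 CPM of F11R, and 715, 751 and 654 CPM of ICAM1. All lay below every PRP lysate and every ACS library. The log2 fold change of ITGB5 was 1.16 with PRP lysate and 1.25 with ACS (adjusted p = 0.00156 and 0.0027, limma). That of F11R was 1.55 and 1.40 (adjusted p = 0.00396 and 0.0139), and that of ICAM1 with ACS was 1.05 (adjusted p = 0.0024). VCAM1 was at 119, 80.5 and 105 CPM with MSC-CM, 10.6-fold above the PRP lysate mean (log2 fold change -3.56, adjusted p = 0.00265, limma). ITGA9 was at 22.2, 26.6 and 39.8 CPM with MSC-CM (log2 fold change with PRP lysate -1.94, adjusted p = 0.00884, limma). PXN passed the p threshold without the fold in both, at -0.60 and -0.60, since MSC-CM held its highest values at 200, 239 and 227 CPM.

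MSC-CM library 3 carried part of these calls. Without it, PRP lysate kept F11R and VCAM1, while ITGB5 was at 0.97 and ITGA9 had an adjusted p of 0.0615 (limma), and ACS kept ITGB5 alone. With the replicate number as a block over all libraries but those of ACS, the ITGA9 call with PRP lysate was lost as well (log2 fold change -1.94, adjusted p = 0.0612, limma). That block also joined the untreated and IL-1ß libraries by number, so it is not a paired test of PRP lysate and MSC-CM. Without ACS library 2, ACS also kept ITGB5 alone, with ICAM1 at 0.97 and F11R at an adjusted p of 0.0872. F11R with ACS was lost as well without ACS library 1 or MSC-CM library 1, at adjusted p = 0.064 and 0.0607 (limma). EPS8 was 1.17 above MSC-CM with PRP lysate on the log2 scale, not a call. Without PRP lysate library 1 it was 1.88 (adjusted p = 0.0618, limma), also not a call. With IL-1ß library 3, which is in neither group, left out too, it was again 1.88 (adjusted p = 0.000197, limma). With ACS it was also 1.17 above MSC-CM (adjusted p = 0.428, limma), with all ACS libraries above all MSC-CM libraries, and was a call when these 2 groups were fitted alone (adjusted p = 0.00476, limma).

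Between PRP lysate and ACS, 0 of 35 genes were called by limma (0.0946% of all genes), and 1 had an unadjusted p under 0.05 (5.19%). edgeR called 0 (0.0804% of all genes) and DESeq2 called 1, VCAM1 (0.470%). The 3 PRP lysate libraries of VCAM1, at most 16.2 CPM, lay below the 3 ACS libraries, at least 30.7 CPM, and the log2 fold change was -2.44 (95% interval -3.65 to -1.23, adjusted p = 0.185, limma). ITGA9 was at -0.69 (95% interval -1.50 to 0.11) and ITGA5 at -0.22 (-0.50 to 0.06), or -0.07 without PRP lysate library 1. For EPS8 the direction was not settled. Its log2 fold change was positive, at 0.70, without PRP lysate library 1.

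The 3 OT conditions were also set against untreated macrophages, comparisons added after the values had been seen. With MSC-CM plus IL-1ß 1 of 35 genes was called (0.662% of all genes), F11R, at a log2 fold change of -1.16 and an adjusted p of 0.0409 (limma). It was lost without any 1 of the 6 libraries, at adjusted p from 0.0804 (without untreated library 1) to 0.161 (without MSC-CM library 2). On the adjusted p alone there were 4 genes (1.92% of all genes), with ITGB5 (-0.79) and ICAM1 (-0.61) lower and PXN (0.72) higher. ITGAL was at 173 to 277 CPM with MSC-CM against 69.1 to 113 CPM in untreated macrophages (log2 fold change 1.28, adjusted p = 0.071, limma). The T cell marker sum was 1342 to 1441 CPM with MSC-CM and 694 to 1007 CPM in untreated macrophages, and its part in the ITGAL value was not tested. EPS8 was at -1.25, with every MSC-CM library below every untreated one.

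With PRP lysate plus IL-1ß 2 of 35 genes were called against untreated macrophages (1.60% of all genes). VCAM1, at 121, 114 and 44.2 CPM untreated, fell by 3.32 on the log2 scale (adjusted p = 0.00636, limma), and was called whichever library was left out. ITGA9, at 26.3, 33.9 and 15.4 CPM untreated, fell by 1.69 (adjusted p = 0.0279), a call lost without PRP lysate library 1 or 3 or untreated library 1 or 2, at adjusted p = 0.108, 0.0658, 0.132 and 0.152 (limma). FSCN1 was 0.63 higher (adjusted p = 0.0415), under 2-fold. Fitted on these 6 libraries alone, 0 genes were called (0.430% of all genes). With ACS plus IL-1ß limma called 0 of 35 (0.370% of all genes), with 5 at an unadjusted p under 0.05 (7.65%), edgeR called 0 (0.154%) and DESeq2 1, ITGA9 (0.939%). FSCN1 (0.55), ICAM1 (0.44) and ITGB5 (0.46) had the smallest p-values, and in each the 3 ACS libraries lay above the untreated ones. EPS8 in the PRP lysate and ACS conditions overlapped the untreated range of 176 to 285 CPM, at a log2 fold change of -0.08 in both.

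**Figure D4:**
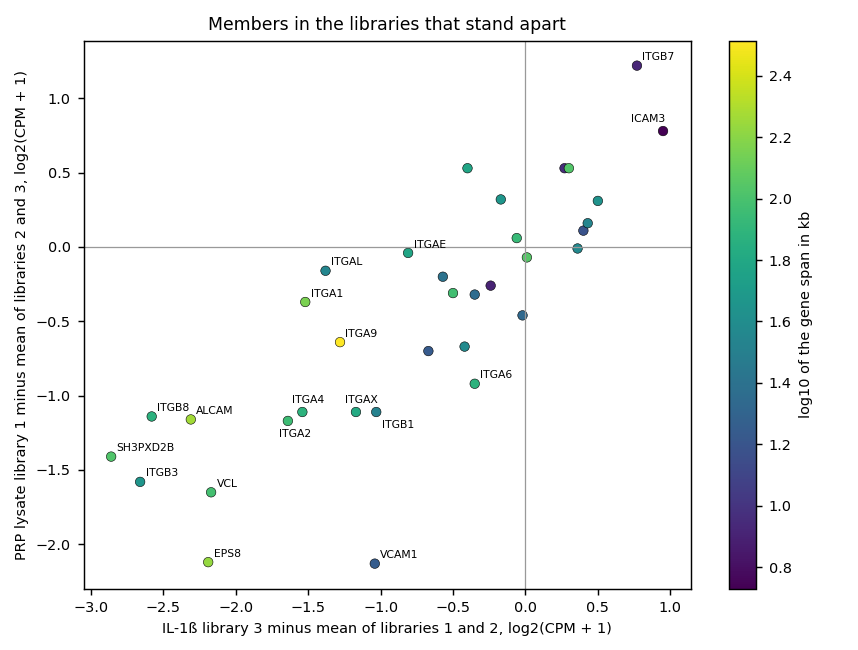
Each point is 1 of the 35 tested genes, with the difference of IL-1ß library 3 from the mean of IL-1ß libraries 1 and 2 (x axis) and of PRP lysate library 1 from the mean of PRP lysate libraries 2 and 3 (y axis), in log2(CPM + 1), coloured by the log10 of the gene's span in kb. EPS8, VCL, ITGB3 and SH3PXD2B are low in both libraries, at the lower left, ITGA1 and ITGAL are low mainly in IL-1ß library 3 (-1.52 and -1.38 against -0.37 and -0.16), and ITGB7 and ICAM3 lie at the upper right.

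In IL-1ß library 3, 14 of the 35 genes (40.0%) were at least 2-fold below the mean of its 2 partner libraries, beside 27.6% of all genes. In PRP lysate library 1 there were 11 (31.4%, beside 14.9%), and all 11 were among the 14. The lowest in IL-1ß library 3 were SH3PXD2B (-2.86), ITGB3 (-2.66), ITGB8 (-2.58), ALCAM (-2.31), EPS8 (-2.19) and VCL (-2.17), in log2(CPM + 1). Long genes tended to be lower in both libraries, though not all of them were. Across the 35 genes the Spearman correlation of the difference with the gene's span was -0.53 in IL-1ß library 3 and -0.38 in PRP lysate library 1, and across all genes tested -0.45 and -0.41. These correlations are over genes of the same libraries and are a description.

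Lists of related genes were set beside these, described by counts and medians. Of 61 other partners of focal contacts and podosomes, 56 were tested. With PRP lysate 0 rose and 1 fell, where 1.07% of all genes rose and 2.02% fell, at a median of 0.03 beside 0.11 over all genes. With ACS 1 rose and 0 fell, where 2.21% of all genes were called in either direction, at a median of 0.08 beside 0.13. Both calls were of Src-family kinases, which phosphorylate podosome proteins. LYN was at 279, 226 and 117 CPM with IL-1ß and at 35.8, 70.7 and 74.4 CPM with PRP lysate, without overlap (log2 fold change -1.74, adjusted p = 0.0116, limma). SRC rose with ACS from 74.5, 81.4 and 40.8 CPM to 111, 136 and 136 CPM, at a log2 fold change of 1.00 (adjusted p = 0.0365, limma) on the limit of 2-fold. The LYN call was lost without IL-1ß library 2 (adjusted p = 0.0536, limma), and the SRC call without any 1 of the ACS libraries or without IL-1ß library 3 (adjusted p = 0.068 to 0.152, limma).

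**Figure D5:**
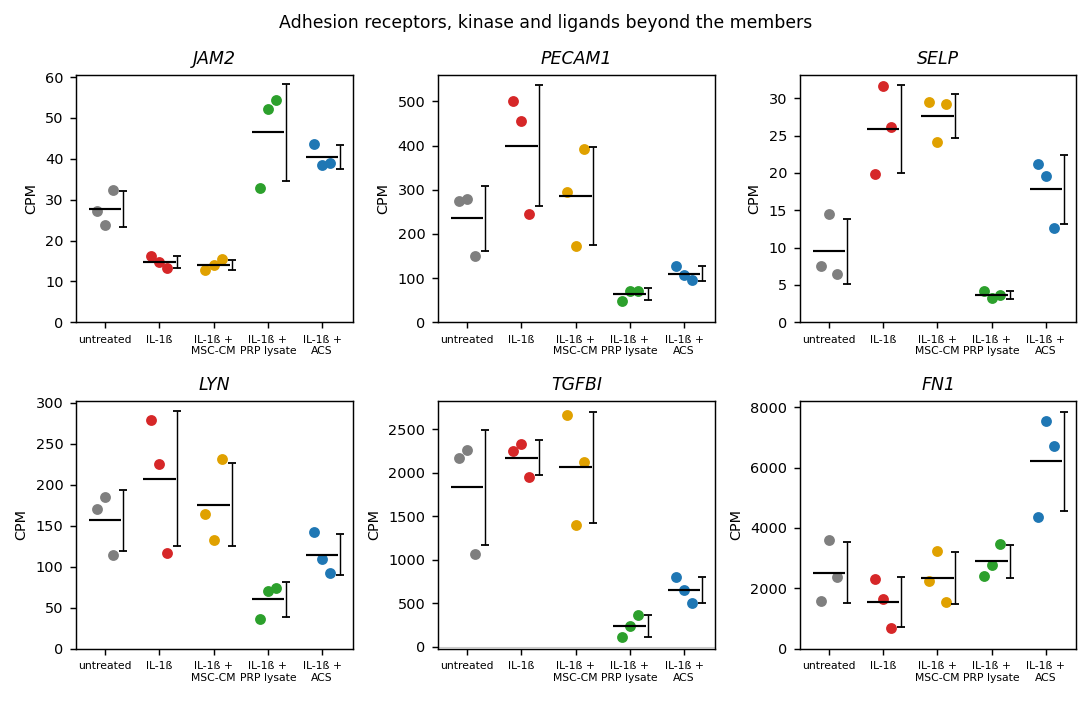
CPM in each of the 15 libraries (points) of 6 related genes, with the mean (bar) and SD (vertical line, n = 3) of each condition. JAM2 is higher with PRP lysate and ACS than with IL-1ß, PECAM1 and TGFBI are lower with both, LYN and SELP are lowest with PRP lysate, and FN1 is highest with ACS.

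Of 39 other adhesion receptors 25 were tested. PRP lysate had 1 higher and 3 lower (1.07% and 2.02% of all genes), at a median of 0.10 beside 0.11 over all genes. ACS had 1 higher and 1 lower (2.21% of all genes in either direction), at a median of 0.04 beside 0.13. JAM2, of the same junctional family as F11R, was at 16.3, 14.7 and 13.3 CPM with IL-1ß, 32.8, 52.3 and 54.3 CPM with PRP lysate (log2 fold change 1.56, adjusted p = 0.000443, limma) and 43.7, 38.6 and 39.0 CPM with ACS (1.39, adjusted p = 0.00255). PECAM1, the CD31 receptor of leukocytes and endothelium, was at 500, 455 and 244 CPM with IL-1ß. It fell by 2.59 with PRP lysate (adjusted p = 0.000694) and by 1.79 with ACS (adjusted p = 0.0134, limma). The PECAM1 call with ACS was lost without ACS library 2 or 3 or IL-1ß library 2 (adjusted p = 0.0632, 0.0645 and 0.0553, limma). SELP (P-selectin) fell by 2.50 and the scavenger receptor CD36 by 1.95 with PRP lysate, the latter a call lost without IL-1ß library 1 or 2 (adjusted p = 0.063 and 0.0892, limma). With IL-1ß, CDH5 (VE-cadherin) fell from 7.36, 8.58 and 12.7 CPM in untreated macrophages to 1.53, 2.83 and 1.76 CPM (log2 fold change -1.78, adjusted p = 0.0493, limma), the 1 gene of this list called there. With MSC-CM plus IL-1ß, CDH5 was also lower (-1.46), and SELP was higher (1.52, adjusted p = 0.0239, limma). Both CDH5 calls were lost without any 1 library (adjusted p = 0.0806 to 0.249 and 0.129 to 0.162, limma), and that of SELP without any but untreated library 2 (adjusted p = 0.0721 to 0.115, limma).

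Of 23 integrin ligands 9 were tested. With PRP lysate 2 fell (2.02% of all genes), at a median of 0.57 over the 9 beside 0.11 over all genes. With ACS 1 rose and 1 fell (2.21% of all genes in either direction), at a median of 0.63 beside 0.13. TGFBI, a secreted matrix protein that binds several integrins, was at 2246, 2327 and 1952 CPM with IL-1ß and at 108, 236 and 361 CPM with PRP lysate, 9.26-fold lower between the means (log2 fold change -3.36, adjusted p = 0.000326, limma). With ACS it was at 804, 647 and 498 CPM (-1.76, adjusted p = 0.0301, limma), a call kept only without IL-1ß library 1, at adjusted p = 0.053 to 0.138 without any other library. COL4A2, a collagen of basement membranes, fell by 1.64 with PRP lysate from 4.55 CPM on average. FN1 (fibronectin) was at 4370, 7534 and 6722 CPM with ACS, against 2308, 1649 and 681 CPM with IL-1ß, a rise of 2.14 (adjusted p = 0.0162, limma) whose call was lost without ACS library 2 or 3 (adjusted p = 0.09 and 0.075, limma).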

How the data were processed

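Polyadenylated RNA was measured in 15 libraries, 3 for each of 5 conditions. The authors trimmed the reads with cutadapt, aligned them with STAR 2.7.3 to EquCab3.0, assigned them to genes with HTSeq in Partek Flow, and deposited CPM for 16932 genes. The strand setting is not given in the sources used here. Column names gave each sample, with 0 columns left unmatched, and the columns sum to 982495 to 991421 CPM. Read numbers were derived from the smallest step within a library, and 99.5% of all values were whole within 0.05 reads.

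The 11628 genes that averaged 1 CPM or more entered limma 3.58.1 with an intensity trend on log2(CPM + 1) in 1 model of 5 conditions without pairing. Fold changes on this scale understate those of low genes. A gene was called at an adjusted p (Benjamini-Hochberg within a comparison) of at most 0.05 and a fold of at least 2. The members and the lists of related genes and markers were chosen with earlier results of these data known. The list of partners leaves out 1 gene, whose values are not reported here. In each of the 7 planned comparisons every called member was named, with the smallest p-values added up to 3, and EPS8 always.

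Alternatives were a pseudocount of 0.1, no filter, RLE size factors, edgeR 4.0.16 (13675 genes) and DESeq2 1.42.0 (12333 to 16927 genes with an adjusted p, by comparison) on recovered reads, only the 2 groups compared, no fold threshold, a replicate block, and leaving out each library. The comparisons against untreated with an OT, and leaving out both libraries that stand apart, were added after the values were seen. R 4.3.3 was used for the fits, and tables and plots were made with Python 3.11.15 and matplotlib 3.10.9. Counting error at 28.4 reads per CPM in the shallowest library limits low genes such as ITGA2. Of all pairs of libraries, 0 held identical values. Replicate numbers were taken from the sample titles. Deviations from the group means correlated at 0.63, 0.26 and 0.42 between MSC-CM and PRP lysate libraries of the same number (1, 2 and 3). Unlike numbers gave -0.60 to 0.47. These ranges overlap, so the correlations cannot show whether the libraries are paired. Every other pair of numbered conditions had at least 1 negative correlation between same-numbered libraries. ACS titles carry no comparable number.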

Additional observations from a re-analysis of the deposited data

How the results depend on the processing

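Of the 17 calls of a gene in a comparison, made for 5 genes, 8 were kept in every fit that left out 1 library. The number of genes called among the 35 moved as follows, with the share of all genes called in brackets. For IL-1ß against untreated it was 0 (0.292%), and 1 with RLE (0.232%) or edgeR (0.197%). DESeq2 (1.24%) or leaving out both libraries that stand apart (0.783%) gave 2. For PRP lysate against IL-1ß it was 4 (3.09%), and 0 with only the 2 groups (0.482%). RLE size factors (3.39%), edgeR (2.84%) and the replicate block (1.69%) each gave 3, and DESeq2 gave 4 (4.74%). Leaving both libraries out (4.41%) or dropping the fold threshold (4.94%) gave 6. Without 1 library it was 3 to 6 (2.36% to 4.03%). For ACS against IL-1ß it was 3 (2.21%), and 1 with only the 2 groups (0.413%). DESeq2 gave 7 (4.01%), and leaving both out gave 6 (2.63%). Without 1 library it was 2 (0.886%) to 7 (6.06%, without IL-1ß library 1). For PRP lysate against MSC-CM it was 4 (2.61%), and 7 with both left out (4.83%). Without 1 library it was 2 to 4, and 2 without MSC-CM library 3 (1.47%). For ACS against MSC-CM it was 3 (1.23%), but 5 with DESeq2 (2.14%) and 9 with only the 2 groups (2.78%). Dropping the fold threshold gave 4 (1.92%). Without 1 library it was 1 to 3 (0.456% to 1.07%), with 1 without ACS library 2 (0.499%) or MSC-CM library 3 (0.456%). For PRP lysate against ACS it was 0 (0.0946%), and 1 with DESeq2 (0.470%). For MSC-CM against untreated it was 1 (0.662%), and 2 with RLE (0.619%) or DESeq2 (1.39%). It was 4 with only the 2 groups (1.63%) or no fold threshold (1.92%). It was 0 without the filter (0.325%) or any 1 library (at most 0.146%). For PRP lysate against untreated it was 2 (1.60%), and 0 with only the 2 groups (0.430%). It was 1 without PRP lysate library 1 or 3 or untreated library 1 or 2 (0.765% to 1.32%). For ACS against untreated it was 0 (0.370%), and 1 with DESeq2 (0.939%) or only the 2 groups (1.12%). EPS8, listed for its IL-1ß values, is among several of these counts as a description and not a test. These are the counts of 2 with DESeq2 and with both libraries left out for IL-1ß against untreated. For PRP lysate against IL-1ß they are 4 with DESeq2 and 6 with both libraries left out. Without PRP lysate library 1 or IL-1ß library 1 they are 5 and 6 there. For ACS against IL-1ß they are 7, 6 and 7, and for MSC-CM against untreated 4 with only the 2 groups. What moved the counts was not tested, and the smaller fits also hold fewer libraries. MSC-CM against IL-1ß kept 0 under every alternative run. RLE scaling moved the all-gene median log2 fold change from 0.16 to 0.00 in that comparison, from 0.13 to 0.02 for ACS against IL-1ß and from 0.10 to -0.01 for MSC-CM against untreated.

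Signs turned for EPS8 only, among the named genes and alternatives run. Between PRP lysate and ACS its log2 fold change was -0.01, and 0.02 with RLE, 0.28 with edgeR, 0.27 with DESeq2, 0.70 with both libraries left out, and -0.38 to 0.70 without 1 library. Between PRP lysate and untreated it was -0.08, and 0.11 with edgeR, 0.10 with DESeq2, 0.62 with both libraries left out, and -0.45 to 0.62 when 1 was left out. Between ACS and untreated it was -0.08, and -0.22 to 0.13 when 1 was left out, with 0.13 without untreated library 2. None of these passed the threshold.

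Whether the replicate numbers of the titles pair any libraries is not settled. Same-numbered MSC-CM and PRP lysate libraries deviated in the same direction, but so did some of unlike number. Every other pair of numbered conditions had at least 1 same-numbered pair deviating in opposite directions (down to -0.77). With a replicate block on these 12 libraries the counts against IL-1ß were 0 for MSC-CM (0%) and 3 for PRP lysate (1.69%). PRP lysate against MSC-CM had 3 (1.47%), with only ITGA9 lost. Against untreated they were 0 for IL-1ß (0.0516%), MSC-CM (0.0430%) and PRP lysate (0.628%). ACS titles carry no numbers, so it was left out of the block. Over all named values, 526 kept their direction and their side of the threshold, 43 no longer passed it, 21 newly passed it and 12 turned sign without passing. The 526 include values that were never calls and stayed so, whereas the 43 can come only from the 17 calls. EPS8, listed for its IL-1ß values, is in this tally, also among the 21, as a description and not a test.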
